A study of Mus musculus with 6 samples.

Results

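The leukocyte integrins are adhesion receptors built of 1 alpha and 1 beta chain, through which blood-borne and tissue-resident immune cells hold on to vessel walls, matrix and each other. Here 7 chain genes (Itgam, Itgax, Itgal, Itgb2, Itga4, Itgb1 and Itgb7) and Selplg, the gene of the selectin ligand PSGL-1, were taken by symbol, 8 genes of 55487 in the count tables. All 8 matched 1 Ensembl identifier each and all 8 passed the filter on low counts. The libraries were made from mouse hearts on the C57BL/6 background. The KO group had Egfr, the gene of the epidermal growth factor receptor, deleted in myeloid cells (labelled Egfr mKO, with 3 pools). The WT group is labelled Egfr f/f, the floxed allele, with genotype WT (also 3 pools). Each pool joined 5 hearts, except KO replicate 3, whose title lists 6. The Cre driver, the age and sex of the mice and the purity after the beads are not given in the labels used here, and the pooling of hearts hides the spread between single animals.

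Itgam encodes the protein on which the cells were selected. Per the design text, non-myocyte cells of the digested hearts were held on magnetic beads against Cd11b, the protein of Itgam, so every pool was selected for cells that carry that alpha chain. The levels are RNA of whole preparations, in which fewer cells of a type and less RNA per cell cannot be told apart. The beta 2 chain (Itgb2, CD18) pairs with alpha M (Itgam, CD11b) to form Mac-1, the complement receptor of macrophages, monocytes and neutrophils. It pairs with alpha X (Itgax, CD11c) in dendritic cells and many macrophages, and with alpha L (Itgal, CD11a) to form LFA-1, which most leukocytes carry and lymphocytes use to bind ICAM molecules. The alpha 4 chain (Itga4) pairs with beta 1 (Itgb1) into VLA-4, a receptor for VCAM-1 and fibronectin, or with beta 7 (Itgb7) into a receptor for the mucosal vessel protein MAdCAM-1. Beta 1 also pairs with many other alpha chains and is made by nearly every adherent cell type.

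The base sequence just before the start of 3 of these genes is shown because the myeloid factor PU.1 (gene Spi1) is known to act through GAGGAA-type sites at the Itgam promoter. RefSeq promoter sequences on GRCm38.p6 were held for 5 of the 8 genes. In each line below, capitals mark GAGGAA or its complement TTCCTC, which do not overlap one another here, and each sequence is the 100 bases before the annotated start, 5′ to 3′ on the gene's strand.
Itgam, chr7:128062540-128062639, plus strand: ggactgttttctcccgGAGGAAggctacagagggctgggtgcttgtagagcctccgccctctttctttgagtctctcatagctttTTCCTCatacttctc
Itgax, chr7:128129450-128129549, plus strand: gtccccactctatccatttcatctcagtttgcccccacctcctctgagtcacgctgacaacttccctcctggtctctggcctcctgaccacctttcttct
Itgb1, chr8:128685554-128685653, plus strand: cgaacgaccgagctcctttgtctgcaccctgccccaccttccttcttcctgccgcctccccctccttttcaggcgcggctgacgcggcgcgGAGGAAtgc
Itgam held the motif once on each strand, beginning 84 and 15 bases before the start, and Itgb1 held it once, 9 bases before. The windows of Itgax, Itga4 and Itgb7 held neither form. Of all 32851 promoter windows of this length in the table, 9.82% held it, and a match is a description of letters only.

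Libraries held 25199667 to 27485129 reads in genes in KO and 17780707 to 27104205 in WT. Egfr, the deleted gene, was at 18.5, 15.9 and 17.4 CPM in KO, against 54.7, 43.0 and 44.7 CPM in WT, with no overlap (log2 fold change -1.46, SE 0.13, edgeR adjusted p = 0.0449). CPM here is the read count scaled to library size with TMM factors. WT replicate 1 stood apart from the other WT pools. Macrophage markers summed to 13240 to 14096 CPM in KO, against 13611 CPM in WT replicate 1, within the KO range, and 7412 and 9133 CPM in WT replicates 2 and 3. Erythroid markers summed to 36.2 to 84.7 CPM in KO, against 1876 CPM in that WT pool and 75.5 and 142 CPM in the other WT pools. Results are therefore given with and without it. Leaving out the WT pool with the most macrophage marker RNA also widens any difference that follows the macrophage markers.

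Many of the exonic bases annotated to Itgam are also annotated to a second gene. In GENCODE M21, a gene set on the same build, Itgam (ENSMUSG00000030786) spans 128062640 to 128118491 of chromosome 7 on the plus strand, with 5024 exonic bases. That second model, Gm49368 (ENSMUSG00000108596), runs over the same exons on the same strand and ends in an exon of its own beyond Itgam. Of the Itgam exonic bases 3450, or 68.7%, also belong to Gm49368, which leaves 1574 that are Itgam's alone. Gm49368 stands in the deposited tables with 4, 1 and 3 reads in KO and 3, 6 and 0 in WT, 17 reads in all, although 1353 of its exonic bases lie outside Itgam. The tables hold 3912, 4485 and 3092 Itgam reads in KO and 3658, 1686 and 1813 in WT. HTSeq by default sets aside a read that falls on 2 genes, but the counting mode is not given in the sources used here. If the annotation used had these exons, at most 17 reads on the shared bases were counted for Gm49368. Whether the other reads there were left out or counted for Itgam alone was not tested.

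**Figure D1:**
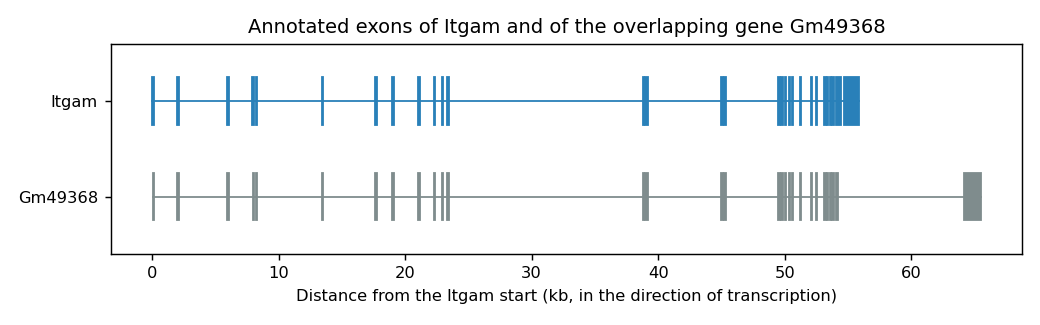
Exons (boxes) of Itgam, top, and of the overlapping gene model Gm49368, bottom, against distance from the Itgam start in kb along the direction of transcription. The exons of the 2 models coincide over most of Itgam (3450 of 5024 exonic bases), and the last exon of Gm49368 lies past the end of Itgam.

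No other chain shares exonic bases with a gene on its own strand. Itga4 shares 1124 of its 13978 exonic bases with Cerkl on the opposite strand, and without the strand setting, which is not given, those reads cannot be assigned. Of the 50-base stretches in the Itgax transcripts, 8.02% also occur in Itgad, a neighbouring alpha chain of the same family, so Itgax reads there could be lost. Itgad was at 0.382, 0.0393 and 0.311 CPM in KO, against 0.462, 0.626 and 0.419 CPM in WT.

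Per length, Itgb2 and Itgb1 stood above the other 6 genes. On the scale of CPM per kilobase of merged exons, Itgb2 was highest, with 253 ± 20.8 in KO and 198 ± 58.2 in WT (SD, n = 3 each). Itgb1 followed with 180 ± 8.75 in KO and 180 ± 12.4 in WT, and the ranges of Itgb2 and Itgb1 over 6 libraries overlapped. Selplg came next with 67.1 ± 9.85 in KO and 50.6 ± 9.81 in WT, and lay below Itgb1 in 6 of 6 libraries with no overlap of ranges. Below it were Itgal at a mean level over 6 libraries of 46.3, Itgb7 at 37.2, Itgax at 27.4, Itgam at 25.2 and Itga4 at 19.3 CPM per kilobase. From Selplg downwards every neighbour in this order overlapped the next in range. Itgb7 lay above its partner Itga4 in 6 of 6 libraries, by less with the longest annotated transcript as the length (means of 38.4 for Itgb7 and 27.6 for Itga4). Itgam has no firm place in the order. The same reads divided by the 1574 bases that are its own, a length that holds only if reads on the shared bases were left out, put Itgam at 94.4 ± 17.8 CPM per kilobase in KO and 66.3 ± 20.1 in WT, above Selplg in 6 of 6 libraries though the ranges overlap. With the longest annotated transcript as the length, Selplg had a mean level of 109 CPM per kilobase and no longer overlapped Itgal, since its merged exons are 4272 bases and its longest transcript 2314.

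The place of Itgam among the beta 2 partners depends on that choice in the same way. Of the summed per-kilobase level of Itgal, Itgam, Itgax and Itgad, Itgal held 43.1% ± 4.06 in KO and 51.2% ± 6.49 in WT, Itgam 27.4% ± 4.11 in KO and 22.9% ± 4.17 in WT, and Itgax 29.4% ± 2.55 in KO and 25.8% ± 2.35 in WT, with merged exons as the length (SD, n = 3 each). With the same Itgam reads divided by its own bases alone, under the same condition, it held 54.5% ± 5.07 in KO and 48.5% ± 6.09 in WT and was the leading partner, except in WT replicate 2, where Itgal had 41.8% and Itgam 41.6%. Itgad held at most 0.145% in any library by either length. The summed level of the 4 alpha chains was 0.425 ± 0.0167 of the Itgb2 level in KO and 0.467 ± 0.0809 in WT with merged exons, and 0.681 ± 0.0515 in KO and 0.698 ± 0.0755 in WT with the other length.

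None of the 8 genes passed the test of KO against WT. The test was edgeR's quasi-likelihood test over all 15707 genes kept, with Benjamini-Hochberg adjustment and a threshold of 0.05, under which 0.0127% of genes were called, and 0 of the 8 were. DESeq2, which called 5.22% of its genes, and limma-voom also called 0 of the 8. At an unadjusted p under 0.05, reached by 15.3% of all genes and by 4.77% as higher in KO, edgeR gave 1 of the 8 (Itgax, higher). DESeq2 and limma-voom gave 3 each at that level, Itgam, Itgax and Selplg, all higher. It was reached by 9.38% of the 28992 genes with a DESeq2 p (2.75% as higher) and by 14% of genes in limma-voom (5.07% as higher). Counting higher genes alone, DESeq2 called 1.08% of all genes, and edgeR without its filter on low counts called 0.479% of all genes and 0 of the 8. The log2 fold changes of the 8 had a median of 0.38, beside 0.0072 over all genes tested, and 7 of 8 were positive where 50.8% of all genes were. With other scalings of library size the median was 0.34 to 0.39 and 6 to 8 were positive. Itgam, Itgax, Itgb2, Itgb7 and Selplg had fitted levels 1.28 to 1.42 times as high in KO as in WT, and Itgal, Itga4 and Itgb1 0.996 to 1.12 times.

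**Figure D2:**
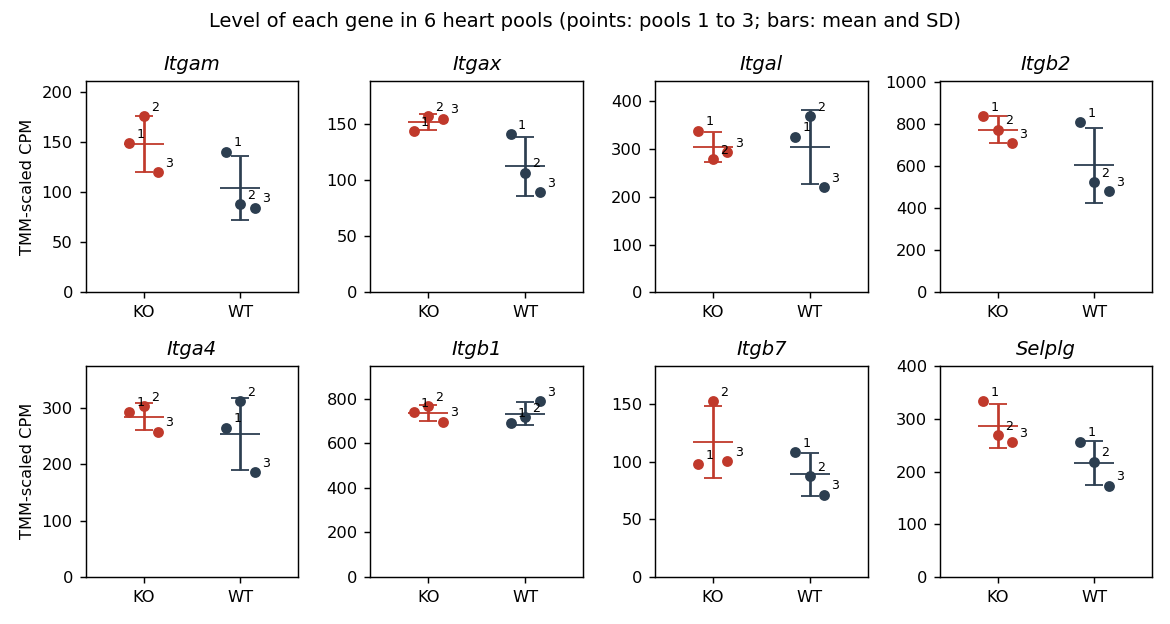
TMM-scaled CPM of each of the 8 genes (vertical axes, starting at 0) in 3 KO pools, left in each panel, and 3 WT pools, right; points are pools with their replicate number, and bars give the mean and SD. Itgax is the only one of the 8 whose KO points, 143 to 157 CPM, all lie above its WT points, 88.9 to 140 CPM, and WT replicate 1 is the WT point nearest to KO for Itgam, Itgax, Itgb2, Itgb7 and Selplg.

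Among the alpha chains of beta 2, Itgam was at 149, 176 and 120 CPM in KO, against 141, 87.9 and 84.4 CPM in WT. KO replicate 3 lay below WT replicate 1, so the groups overlapped. KO over WT, the log2 fold change was 0.51 (SE 0.23, 95% interval -0.02 to 1.03, edgeR adjusted p = 0.341). All 6 pools had been selected on this chain's protein.

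Itgax (ENSMUSG00000030789, 128129547 to 128150657 of chromosome 7, plus strand), the CD11c chain, was at 143, 157 and 154 CPM in KO, against 140, 106 and 88.9 CPM in WT. Every KO pool lay above every WT pool, as in 9.59% of all genes tested. Its log2 fold change was 0.44 (SE 0.17, 95% interval 0.05 to 0.83, edgeR adjusted p = 0.280). Dendritic cell markers summed to 230, 272 and 300.3 CPM in KO, against 225, 180 and 144 CPM in WT, also with no overlap. Of the 7 on that list 5 had positive log2 fold changes (median 0.45) and none was at 0 in all libraries. EdgeR called 0 of them, and 3 reached an unadjusted p under 0.05, all higher, beside 4.77% of all genes as higher. DESeq2, which called 1.08% of all genes as higher, called 1 higher, Ccr7, named after its values were seen. Their part in the Itgax level was not tested.

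Itgal (ENSMUSG00000030830, 127296260 to 127335138 of chromosome 7, plus strand), the LFA-1 chain, was at 339, 279 and 294 CPM in KO, against 326, 369 and 220 CPM in WT. The WT pools spanned both ends of the range and enclosed all KO pools. KO differed from WT by -0.01 on the log2 scale (SE 0.20, edgeR adjusted p = 0.991), the 95% interval reached from -0.47 to 0.46, and with upper-quartile scaling the value was 0.0011.

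The common partner Itgb2 (ENSMUSG00000000290, 77530252 to 77565708 of chromosome 10, plus strand) was at 837, 772 and 709 CPM in KO, against 807, 524 and 479 CPM in WT. WT replicate 1 sat among the KO pools and the other WT pools below all of them. On the log2 scale KO differed from WT by 0.36 (SE 0.22, 95% interval -0.15 to 0.86, edgeR adjusted p = 0.478).

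Itga4 (ENSMUSG00000027009, 79255426 to 79333123 of chromosome 2, plus strand), the VLA-4 chain, was at 294, 303 and 258 CPM in KO, against 265, 313 and 186 CPM in WT. The groups overlapped, with both the highest and the lowest pool in WT. Its log2 fold change was 0.16 (SE 0.19, 95% interval -0.29 to 0.61, edgeR adjusted p = 0.740).

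Itgb1 (ENSMUSG00000025809, 128685654 to 128733200 of chromosome 8, plus strand) had the smallest SE of the 8 genes. It was at 740, 767 and 696 CPM in KO, against 692, 718 and 790 CPM in WT, and the log2 fold change was 0.00 (SE 0.14, 95% interval -0.32 to 0.32, edgeR adjusted p = 0.995), against -0.0038 with RLE scaling. Its highest pool was WT replicate 3, where the other 7 genes were at their lowest.

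Itgb7 (ENSMUSG00000001281, 102215995 to 102231944 of chromosome 15, minus strand), the partner of alpha 4 in gut-homing lymphocytes, was at 97.9, 153 and 101 CPM in KO, against 108, 87.5 and 71.6 CPM in WT. KO replicate 2 stood above the other libraries, and the groups overlapped without it too. Its log2 fold change was 0.39 (SE 0.22, 95% interval -0.11 to 0.89, edgeR adjusted p = 0.429), and without KO replicate 2 it was 0.16 (edgeR adjusted p = 0.808). B cell markers summed to 698 CPM in KO replicate 2, beside 412 and 442 CPM in the other KO pools and 281 to 389 CPM in WT, and their part in the Itgb7 level was not tested.

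Selplg (ENSMUSG00000048163, 113818536 to 113832644 of chromosome 5, minus strand), which presents the sugar ligand of P-, E- and L-selectin on leukocytes, was at 334, 270 and 256 CPM in KO, against 257, 219 and 173 CPM in WT. The groups overlapped only through KO replicate 3 and WT replicate 1, which lay close together. KO over WT gave a log2 fold change of 0.41 (SE 0.18, 95% interval -0.01 to 0.82, edgeR adjusted p = 0.334).

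Leaving out WT replicate 1 brought 3 of the 8 genes past the threshold, all higher in KO, in a fit that called 8.3% of all genes and 2.33% as higher. Their log2 fold changes were 0.79 for Itgam (SE 0.17, edgeR adjusted p = 0.0358), 0.64 for Itgax (SE 0.13, edgeR adjusted p = 0.0275) and 0.63 for Itgb2 (SE 0.14, edgeR adjusted p = 0.0404). In the same fit Selplg had 0.55 (edgeR adjusted p = 0.0928) and Itgb7 0.56 (edgeR adjusted p = 0.163). Leaving out any of the other 5 libraries called 0 of the 8. WT replicate 1 was the WT pool nearest to KO for Itgam, Itgax, Itgb2, Itgb7 and Selplg. Leaving it out therefore widens these differences by construction, and the 3 calls rest on that choice. Without WT replicate 3 the log2 fold changes were smaller than with all 6 libraries, at 0.38 for Itgam, 0.30 for Itgax, 0.22 for Itgb2, 0.26 for Itgb7 and 0.27 for Selplg. Without KO replicate 1, Selplg had 0.28.

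**Figure D3:**
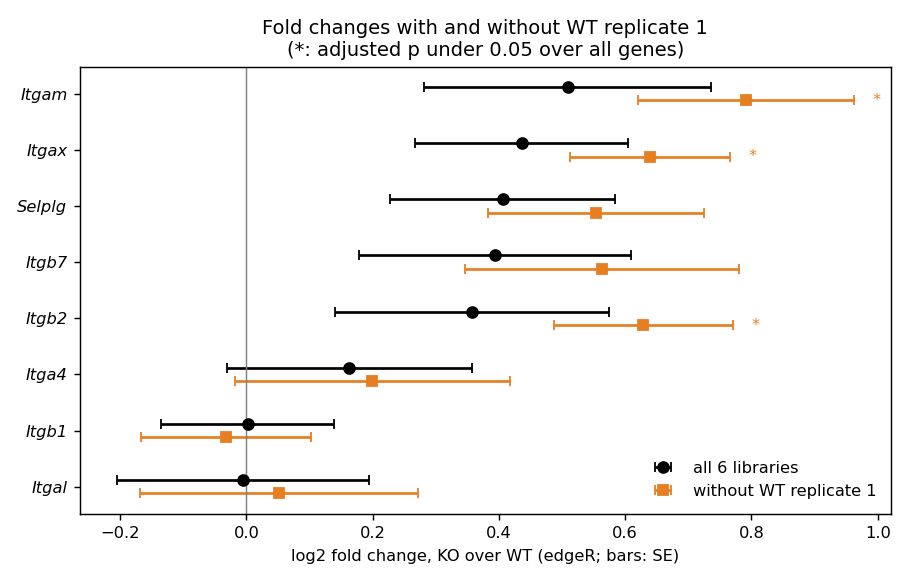
Log2 fold change of KO over WT for the 8 genes (horizontal axis; bars are the SE from edgeR) with all 6 libraries (black circles) and without WT replicate 1 (orange squares); an asterisk marks an adjusted p under 0.05 over all genes. Itgam, Itgax and Itgb2 carry an asterisk only without WT replicate 1, and Itgb1 and Itgal stay near 0 in both.

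Cell type markers moved with these values across the pools. Of all genes tested, 50.8% had positive log2 fold changes and 4.77% were higher in KO at an unadjusted p under 0.05. All 10 macrophage markers tested had positive log2 fold changes (median 0.42), and none of them was at 0 in all libraries. EdgeR called 0 of these markers, with 2 at an unadjusted p under 0.05, and DESeq2 called 0. Their summed level was 13240 to 14096 CPM in KO and 7412 to 13611 CPM in WT, so that WT replicates 2 and 3, which held the least Itgam, Itgax and Itgb2 of all 6, also held the least macrophage marker RNA. With the mean macrophage marker level as a covariate, a setting chosen after seeing the data, the log2 fold changes were 0.21 for both Itgam and Itgax, 0.050 for Itgb2, 0.27 for Selplg, 0.25 for Itgb7, 0.042 for Itgal and 0.051 for Itgb1. Itga4 had 0.26, more than the 0.16 without the covariate. In that fit, which called 7 of all genes tested, the edgeR adjusted p-values of the 8 were 0.955 to 0.996. The mean log2 macrophage level was 9.79 to 9.89 in KO, against 9.85, 8.99 and 9.32 in WT replicates 1, 2 and 3. Covariate and genotype are thus told apart mainly through WT replicate 1, and the part of macrophages in the differences was not tested. Without WT replicate 1, edgeR called 5 of the 10 macrophage markers higher, beside 2.33% of all genes. Endothelial markers summed to 885 to 1188 CPM in KO and 1665 to 2830 CPM in WT, with no overlap, and mural markers to 1203 to 1773 CPM in KO and 1925 to 3161 CPM in WT, with none either. All 8 endothelial, 7 fibroblast and 7 mural markers had negative log2 fold changes. DESeq2, which called 5.22% of its genes, called 8, 4 and 6 of them lower, while edgeR called 0. Without WT replicate 1, edgeR called 7, 7 and 6 of them lower, in a fit that called 8.3% of all genes. With the mean of these 3 lists as a covariate, the log2 fold changes of the 8 genes other than Itgb1 were negative, from -0.49 for Itgal to -0.11 for Selplg, and 0 of the 8 passed, in a fit that called 0.00637% of genes. The endothelial and mural levels do not overlap between the genotypes, so covariate and genotype cannot be told apart in that fit.

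T cell markers set WT replicate 2 apart. They summed to 135, 54.5 and 218 CPM in KO, against 28.5, 531 and 31.3 CPM in WT replicates 1, 2 and 3. That pool also had the highest Itgal and Itga4 of the 6 libraries, while its Itgam, Itgax and Itgb2 were low. Without it the log2 fold change was 0.15 for Itgal and 0.33 for Itga4. The part of T cells in these levels was not tested.

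**Figure D4:**
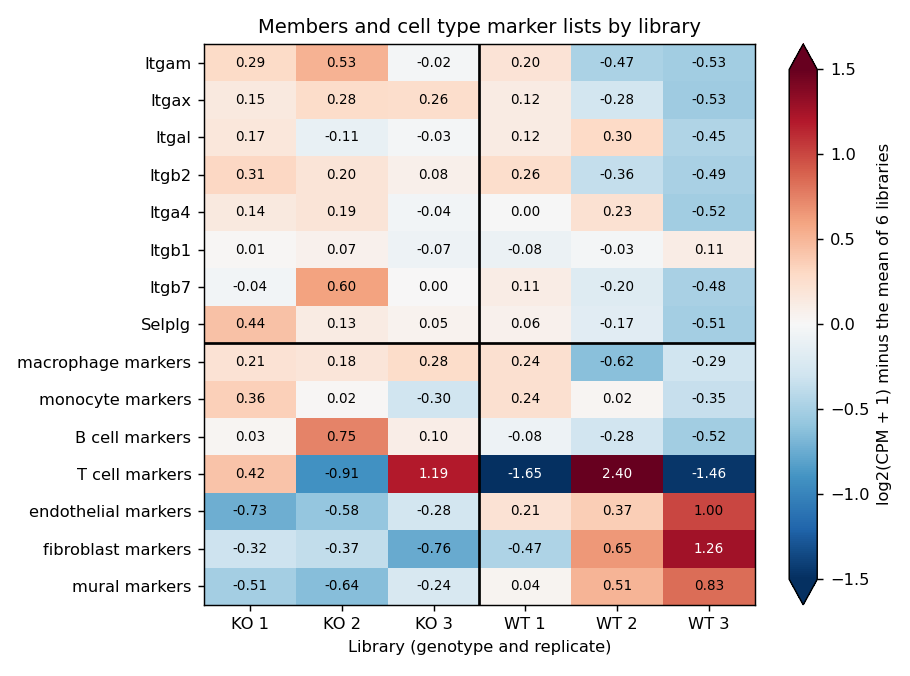
Level of each of the 8 genes, and mean level of 7 lists of cell type markers, in each library (columns, KO left and WT right), as log2(CPM + 1) minus the mean of the 6 libraries; red is above and blue below that mean. Itgam, Itgax and Itgb2 are below their means in WT replicates 2 and 3 together with the macrophage markers, T cell markers peak at 2.40 in WT replicate 2, and vessel wall and fibroblast markers are highest in WT replicate 3.

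The ratio of 2 chains within a library does not depend on scaling. Compared were 8 such ratios, some of partners and some of 2 alpha or 2 beta chains. An exact two-sided permutation test of 3 against 3 pools cannot go below p = 0.1, and the exact permutation p-values were 0.2 to 0.8, all adjusted to 0.8 over the 8 ratios. The Itgam to Itgb2 ratio of read counts was 0.179, 0.228 and 0.169 in KO, against 0.174, 0.168 and 0.176 in WT. It was thus nearly constant in 5 libraries, between 0.168 and 0.179, while Itgb2 itself ran from 479 to 837 CPM, and only KO replicate 2 stood above them. Monocyte markers summed to 3489 CPM in that pool, against 2415 and 1585 CPM in the other KO pools and 1621 to 2283 CPM in WT. Of the 3489 CPM, Fn1 alone made 3022. The mean log2 level of these markers did not peak there. It was 6.67 in KO replicate 2, against 7.01 and 6.35 in the other KO pools and 6.30 to 6.89 in WT. The part of monocytes in the ratio was not tested. The log2 difference of that ratio was 0.14, with 0.0090 without KO replicate 2 and 0.23 without KO replicate 3. The Itgax to Itgb2 ratio was likewise narrow, at 0.171, 0.203 and 0.218 in KO, against 0.174, 0.203 and 0.186 in WT. The ratio of Itgal to Itgb2 was 0.405, 0.361 and 0.414 in KO, against 0.404, 0.704 and 0.459 in WT, with WT replicate 2 standing far above the other 5 libraries. On the log2 scale that ratio differed by -0.37 between KO and WT (exact permutation p = 0.3), and by -0.13 without WT replicate 2.

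Itgal per Itgam gave the largest difference among the 8 ratios. It was 2.27, 1.58 and 2.45 in KO, against 2.32, 4.20 and 2.60 in WT, a difference of -0.51 on the log2 scale (exact permutation p = 0.2), with -0.25 without WT replicate 2 and -0.32 without KO replicate 2. For the alpha 4 pairs, Itga4 to Itgb1 was 0.397, 0.395 and 0.370 in KO, against 0.383, 0.436 and 0.235 in WT, where WT replicate 3 was the low one. Its log2 difference was 0.19, with -0.077 without WT replicate 3 and 0.37 without WT replicate 2. Itga4 to Itgb7 was 3.0, 1.98 and 2.57 in KO, against 2.45, 3.58 and 2.59 in WT. That made a log2 difference of -0.19, which was -0.022 without WT replicate 2, -0.029 without KO replicate 2 and -0.33 without KO replicate 1. The remaining ratios, Itgax to Itgam and Itgb7 to Itgb1, differed by -0.071 and 0.38 on the log2 scale and overlapped between groups. For Itgb7 to Itgb1 the difference was 0.18 without WT replicate 3, 0.20 without KO replicate 2 and 0.57 without WT replicate 1.

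**Figure D5:**
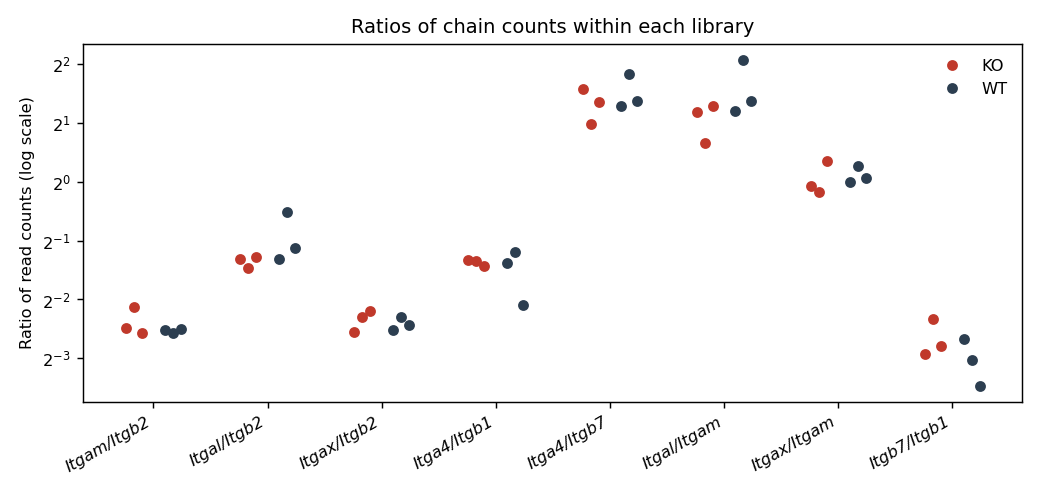
Ratio of read counts of 2 chains in the same library (vertical axis, log scale) for 8 pairs, with 3 KO pools (red) left of 3 WT pools (dark) in each pair. The Itgam to Itgb2 ratio is nearly flat outside KO replicate 2, and the high WT points of the Itgal ratios, 0.704 and 4.20, are both WT replicate 2.

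The genes whose levels followed Itgam most closely over the 6 libraries were Sirt7, a nuclear deacylase (Pearson r = 0.996), Agpat2, a lipid acyltransferase (r = 0.992), Fam111a (r = 0.991), Evi2a (r = 0.988) and Trim14 (r = 0.987), of 9171 protein-coding genes with a mean of at least 10 CPM. With 6 points that share their libraries, and so many genes, these values describe the order of the pools. Among the other 7 genes, Itgb2 had r = 0.931 with Itgam, Itgax 0.886, Itgb7 0.884 and Selplg 0.823, while Itga4 had 0.520, Itgal 0.209 and Itgb1 -0.118. Itgal was closest to Itga4, at 0.847.

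The other integrin chains are mostly of vessel wall, matrix-binding and platelet cells, though the list also held the leukocyte chains Itgad and Itgae. The listed chains leaned to lower levels in KO, with log2 fold changes from -1.12 for Itga2 to -0.0036 for Itga9. Itgad had -1.01, Itgae -0.20 and Itgb5 -0.0073. Of 19 listed, 18 were tested and all 18 had negative log2 fold changes (median -0.59, beside 0.0072 over all genes), though 2 were positive with upper-quartile scaling and 3 without WT replicate 1. EdgeR called 0, and 9 of 18 reached an unadjusted p under 0.05, all negative, beside 15.3% of all genes in either direction. In 6 of 18 every KO pool was below every WT pool, as in 10.1% of all genes. Itga1, a collagen receptor chain, was at 41.5, 44.1 and 54.0 CPM in KO, against 74.7, 102 and 110 CPM in WT. The difference was -1.04 on the log2 scale (SE 0.17, edgeR adjusted p = 0.152). Itga2, another collagen receptor chain, had -1.12 (SE 0.35), the platelet chain Itga2b, which also stands in the platelet marker list, -1.0 (SE 0.31), and Itgb3, the partner of Itga2b and Itgav, -0.53 (SE 0.16), each with edgeR adjusted p = 0.228. DESeq2, which called 5.22% of its genes, called 3 chains lower, Itga1, Itga2b and Itga8, the last named after its values were seen. EdgeR without its filter, which called 2.7% of genes, called the same 3. Without WT replicate 1, edgeR called 5 lower, Itga1, Itga2, Itga8, Itgb3 and Itgb8, in a fit that called 8.3% of all genes. The endothelial and mural levels given above moved with these chains, and their part was not tested.

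Vessel and matrix ligands of the leukocyte integrins were listed together with the junction protein Esam. The 13 tested of 17 had a median log2 fold change of -0.21, with 10 negative, where 50.8% of all genes were positive. EdgeR called 0, and 4 reached an unadjusted p under 0.05, beside 15.3% of all genes. The junction proteins Jam2 (-0.99, SE 0.21, edgeR adjusted p = 0.174), Jam3 (-1.08, SE 0.28), Esam (-1.0, SE 0.25) and F11r (-0.52, SE 0.17) had every KO pool below every WT pool, as in 10.1% of all genes. DESeq2, which called 5.22% of its genes, and edgeR without WT replicate 1, which called 8.3%, both called Jam2, Jam3 and Esam lower. Jam2 was at 60.0, 70.9 and 86.4 CPM in KO, against 116, 129 and 186 CPM in WT. These are junction genes of endothelial cells among others, and the same endothelial marker levels stand beside them.

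Of 29 genes that activate integrins or link them to the cytoskeleton, all were tested. Positive log2 fold changes were found in 22, where 50.8% of all genes were positive, and the median was 0.21. EdgeR called 0, and 3 reached an unadjusted p under 0.05, as did 15.3% of all genes. These 3 were negative: Fermt2, the kindlin of non-blood cells (-0.92, SE 0.23, edgeR adjusted p = 0.192), the cytoskeletal linker Vcl (-0.46, SE 0.13) and Tln2, a talin (-0.32, SE 0.13). DESeq2, which called 5.22% of its genes, called Fermt2 lower. Syk, the kinase through which integrins of myeloid cells signal, was at 895, 697 and 650 CPM in KO, against 680, 486 and 463 CPM in WT. That was a difference of 0.46 on the log2 scale (SE 0.20, edgeR adjusted p = 0.340). Without WT replicate 1, edgeR called 8.3% of all genes, and of this list 4 higher in KO and 1, Fermt2, lower. Those higher included Fermt3, the blood-cell kindlin (0.57, edgeR adjusted p = 0.0321), the adaptor Tyrobp (0.81, edgeR adjusted p = 0.0228) and Skap2 (0.50, edgeR adjusted p = 0.0459). All of these but Fermt2 were chosen for naming after their values were seen.

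Selectins and the enzymes and partners of PSGL-1 had a median log2 fold change of 0.16 over 16 genes. Of these 11 were positive, where 50.8% of all genes were. EdgeR and DESeq2 called 0, and 1 reached an unadjusted p under 0.05 in edgeR, beside 15.3% of all genes and 4.77% as higher. That one was Ezr, a linker of membrane proteins to actin, at 384, 343 and 447 CPM in KO, against 329, 306 and 228 CPM in WT (0.45, SE 0.18, edgeR adjusted p = 0.291). Its KO pools all lay above its WT pools, as in 9.59% of all genes. The sulfotransferase Tpst1 had -0.41 (SE 0.20), the fucosyltransferase Fut4 0.57 (SE 0.31) and the endothelial selectin Sele -0.71 (SE 0.40). Of 10 transcription factors of leukocyte genes, 5 had positive log2 fold changes, the median was 0.06, and 0 were called in edgeR or DESeq2 or reached an unadjusted p under 0.05. Spi1, which encodes PU.1, was at 325, 276 and 286 CPM in KO, against 291, 174 and 191 CPM in WT. KO over WT it had 0.43 on the log2 scale (SE 0.20, edgeR adjusted p = 0.359), and without WT replicate 1 it was called higher at 0.70 (edgeR adjusted p = 0.0251). Irf8 had 0.29 (SE 0.15), Cebpa 0.31 (SE 0.20) and Gata3, a T cell factor at 1.18, 0.943 and 2.33 CPM in KO, against 0.616, 11.1 and 1.63 CPM in WT, -1.56 (SE 0.95).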

How the data were processed

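The deposited values are whole-number read counts per Ensembl gene, 1 table per library, not normalized. The submitters' processing notes name STAR, HTSeq, DESeq2 and GRCm38; tool versions, the annotation release and HTSeq's mode and strand setting are not given there. The kit was directional, per the labels' protocols. The 5 counters that name no gene were left out (outside genes 5.90% to 8.62%, several genes 1.49% to 1.72%, several places 7.58% to 8.67% of reads). Symbols matched 55141 of 55487 identifiers. Exons came from GENCODE M21.

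KO was compared with WT with edgeR 4.0.16 in R 4.3.3 (filterByExpr, minimum count 10, TMM, quasi-likelihood F test, Benjamini-Hochberg over 15707 genes). The SE is the size of the change over the root of F, and intervals use the fit's degrees of freedom. Alternatives used DESeq2 1.42.0 and limma 3.58.1 (voom), other scalings and filters, covariates, the replicate block and leaving out each library. Same-group pools differed far beyond counting noise (chi-square per degree of freedom 38.0 to 84.1). Nothing but the pool names separates the samples, so a p-value reflects how far pools of 1 genotype vary, which may be in part technical.

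The 8 genes and the lists (5 of adhesion genes, 14 of cell type markers) were chosen with earlier results of these data known. All 8 are named; from each adhesion list, up to 4 genes with the smallest p at a mean of at least 1 CPM; and the 5 protein-coding genes closest to Itgam. Figures were drawn with matplotlib 3.10.9.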

Additional observations from a re-analysis of the deposited data

How the results depend on the processing

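The number of genes called was 2 with all 6 libraries, 809 with DESeq2 (167 higher, 642 lower in KO), 782 without the filter (139 higher, 643 lower), 1 with limma-voom, 1 with the vessel wall and fibroblast covariate, 7 with the macrophage covariate and 1 to 1338 on leaving out 1 library. Of the 8 genes 0 passed in these fits, and 0 to 3 on leaving out 1 library, the 3 without WT replicate 1. Replicate numbers did not pair the pools (correlations of deviations 0.141, -0.143 and 0.0365). With the replicate block 0 of the 8 passed, and Itgal had 0.023. Pairing leaves the mean differences of the log2 ratios unchanged by construction. An exact sign-flip test of 3 pairs cannot go below p = 0.25, so its p-values, 0.25 to 0.75, could not have passed the threshold. With the vessel wall and fibroblast covariate the log2 fold changes turned to -0.17 for Itgam, -0.12 for Itgax, -0.30 for Itgb2, -0.30 for Itga4, -0.16 for Itgb7 and -0.11 for Selplg; the cause was not tested. Values near 0 also changed sign. Itgal had 0.022 with limma-voom, 0.042 with the macrophage covariate, 0.0011 with upper-quartile scaling and -0.19 to 0.15 on leaving out 1 library. Itgb1 had -0.0038 with RLE scaling, -0.023 at a mean of at least 5 CPM, -0.041 with no scaling and -0.033 to 0.062 on leaving out 1 library. Itga4 had -0.016 to 0.33 on leaving out 1 library. The ratio differences ranged from -0.0060 to 0.17 for Itgax to Itgb2, from -0.077 to 0.37 for Itga4 to Itgb1 and from -0.23 to 0.036 for Itgax to Itgam on leaving out 1 library.

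DESeq2 called 5.22% of its genes, and edgeR without its filter 2.7%. Among lists with 0 calls in the main edgeR fit, both called 3 other integrin chains, 3 of the ligand list and 1 activation gene lower. Both called 1 monocyte, 1 platelet, 8 endothelial and 4 fibroblast markers lower, and 1 dendritic cell and 2 B cell markers higher. Mural calls were 6 and 5, and erythroid calls 1 and 5, all lower. On leaving out 1 library, every call on these lists came without WT replicate 1, in a fit that called 8.3% of all genes. Lower in KO were 5 other chains and 3 of the ligand list. So were 1 monocyte, 7 endothelial, 7 fibroblast, 6 mural and 1 cardiomyocyte marker. Higher were 1 transcription factor and 5 macrophage, 2 dendritic cell and 1 platelet marker. Of the activation genes 4 were higher and 1 lower. Leaving out any other library called 0 on these lists. Levels per kilobase with the longest transcript were 58.3 for Itgal, 27.6 for Itga4, 192 for Itgb1 and 109 for Selplg, and 80.3 for Itgam over its own bases, a length chosen after seeing the annotation.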
